A study of Mus musculus with 9 samples.

Results

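The Z-disc and intermediate filament genes of HL-1 cells were followed through treatment with 2 inhibitors of nuclear import. The genes were chosen by name as a set of Z-disc and intermediate filament components: Actn2, Ldb3, Tcap, Csrp3, Nebl, Myoz2, Xirp1, Xirp2, Flnc and Des. The choice was made with earlier results of these data known, so the direction of these genes is not independent evidence. All 10 were found, once each, among the 25175 gene symbols of every library, and 9 of them were among the 11337 genes with enough signal to be tested. Xirp2 was not. HL-1 is a mouse cell line of atrial cardiomyocyte origin that divides in culture and still expresses heart muscle genes. Cells were kept for 24 h with 0.1% DMSO (vehicle), with ivermectin at 5 µM, or with importazole at 10 µM, and each group has 3 libraries. Ivermectin is an antiparasitic drug also used to block the import receptor pair importin α/β, and importazole targets importin-β. The labels do not give the DMSO content of the compound groups, nor whether separate cultures gave the libraries of a group, so p-values measure only how these samples spread, and that spread may be technical.

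The Z-disc marks the border between neighbouring sarcomeres. There, α-actinin cross-links actin filaments of opposite polarity, the titin ends are anchored, and a dense set of adaptor proteins ties the contractile apparatus to stretch signalling and protein turnover. Desmin, the muscle intermediate filament protein, runs around the Z-discs and links myofibrils to one another, to the cell membrane and to the nucleus. Several of these proteins move between the Z-disc and the nucleus or bind signalling enzymes, and mutations in many of them cause cardiomyopathy.

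Levels are given in FPKM, fragments per kilobase of transcript relative to the total of mapped fragments, which are scaled to length and so can be compared between genes. Differences were computed as log2(FPKM + 1), a scale that understates changes of low genes. Genes were called changed at a limma adjusted p under 0.05 over all 11337 genes. The depth of the libraries is unknown. Summed FPKM ran from 365259 to 416748, and correlations of log2 values between libraries of a group were 0.9841 to 0.9918 across genes, which are not independent replicates. Yam1 took 5.86% to 10.43% of summed FPKM in 7 libraries but had the value 0 in vehicle 2 and ivermectin 3. Calls of members and of genes in the wider lists that ended without this pair lacking Yam1 are named below. The cardiac identity of the cells was visible in the markers. All 7 cardiomyocyte markers were among the tested genes, with summed levels of 4445 to 5112 FPKM in vehicle, 4038 to 4318 with ivermectin and 4349 to 4697 with importazole. With ivermectin 3 of the 7 fell and 0 rose, where 2.52% of all genes were called lower and 1.79% higher: Mybpc3, encoding a thick filament regulator (log2 change -0.55, limma adjusted p = 5.04e-04), the myosin heavy chain gene Myh6 (-0.44, 0.00854) and the cardiac actin gene Actc1 (-0.23, 0.0317). With importazole 2 fell, Actc1 (-0.43, limma adjusted p = 0.00146) and Myh6 (-0.37, 0.03205), and 1 rose, the atrial natriuretic peptide gene Nppa (0.62, 0.0118), where 0.565% of all genes were called lower and 1.69% higher. Calls of marker genes were not followed through the alternative analyses described below.

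In vehicle the 10 genes spanned a wide range of levels. Nebl, encoding the actin-binding nebulin relative nebulette, was the highest at 99.6 ± 2.58 FPKM (mean ± SD, n = 3), followed by Des at 89.2 ± 3.25. Ldb3, a PDZ and LIM domain scaffold that binds α-actinin, stood at 62.2 ± 1.91 FPKM, and the sarcomeric α-actinin gene Actn2 at 50.7 ± 0.707. The libraries of each of these genes did not overlap with those of the next in the order. Csrp3 (39.1 ± 1.26), Xirp1 (37.9 ± 1.55), Flnc (35.9 ± 2.42) and Tcap (35.6 ± 4.48) followed with overlapping libraries between neighbours. Myoz2 lay at 6.94 ± 1.10 FPKM and Xirp2 at 0.00598 ± 0.00411.

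**Figure D1:**
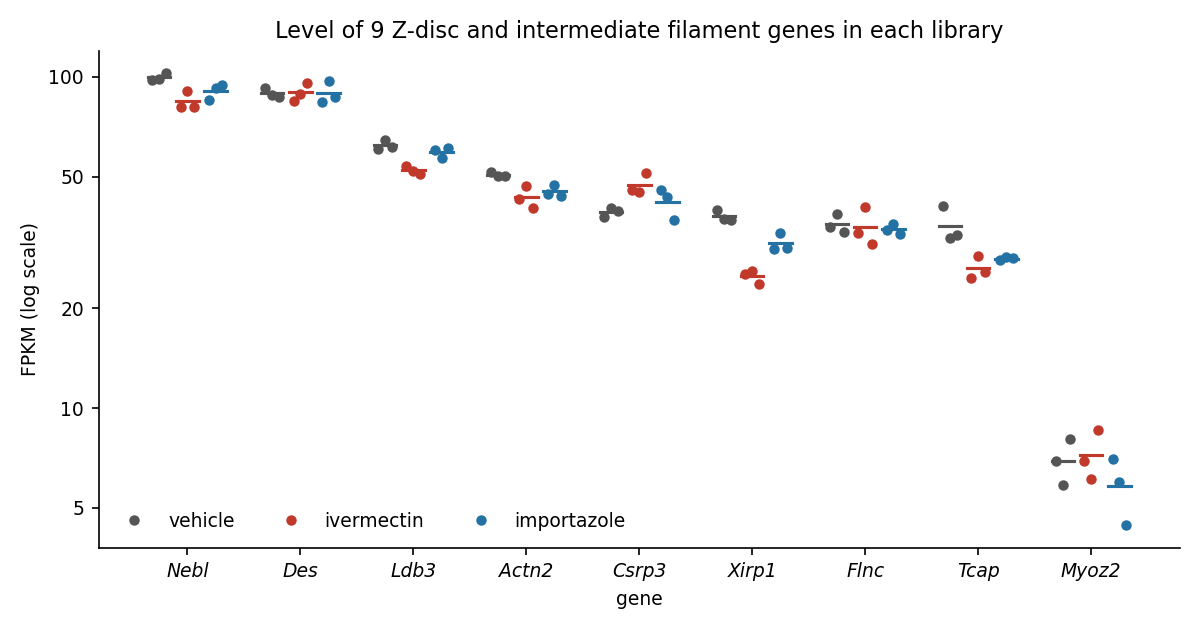
FPKM on a log axis of the 9 tested genes, with a dot for each library and a line at the mean of the 3 libraries of vehicle, ivermectin and importazole. Xirp1 at 23.7 to 25.9 FPKM with ivermectin lies below all libraries of the other groups, while Des and Flnc overlap across the groups; Xirp2, under 0.0115 FPKM in each library, is not drawn.

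With ivermectin 3 of the 9 tested genes, Xirp1, Tcap and Ldb3, fell and 0 rose. Over all genes 2.52% were called lower and 1.79% higher (4.31% in either direction). Only 1 member passed without vehicle 1, ivermectin 1, ivermectin 3, importazole 1 or the pair lacking Yam1, in each case Xirp1. By unadjusted p under 0.05, 5 of the 9 were lower and 1, Csrp3, was higher. The share of all genes under this unadjusted p was not computed, so this count and those at the same threshold below have no background. The 3 ivermectin libraries lay below the 3 vehicle libraries for 5 genes and above them for 1, against 12.2% and 12.4% of all genes (24.6% in either direction). The median log2 change of the 9 genes was -0.23, and that of all genes was 0.01. Of the 9 values 6 were negative, beside 46.67% of all genes. The summed level of the 10 genes was 453 to 463 FPKM in vehicle, 399 to 425 FPKM with ivermectin and 419 to 441 FPKM with importazole. In bulk RNA, fewer cells expressing a gene and less RNA per cell cannot be told apart.

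With importazole 0 of the 9 genes passed limma's test, against 1.69% of all genes called higher and 0.565% called lower (2.26% in either direction). At an unadjusted p under 0.05, 3 were lower (Xirp1, Tcap and Actn2) and 0 higher, again with no share of all genes to set beside them. For 4 genes the 3 importazole libraries lay below the 3 vehicle libraries, against 7.07% of all genes, and for 0 genes above, against 16.5% (23.6% in either direction). The median log2 change was -0.13, beside 0.04 over all genes, and 8 of 9 values were negative, beside 38.55% of all genes. The negative values include that of Des, at -3e-04. The count of 0 depended on scaling between libraries. Xirp1 and Tcap were called lower with importazole once values were quantile-normalized or scaled by the median of ratios. These scalings moved the split of all genes called higher and lower from 192 and 64 to 159 and 117, and to 159 and 118. Both comparisons use the same 3 vehicle libraries.

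**Figure D2:**
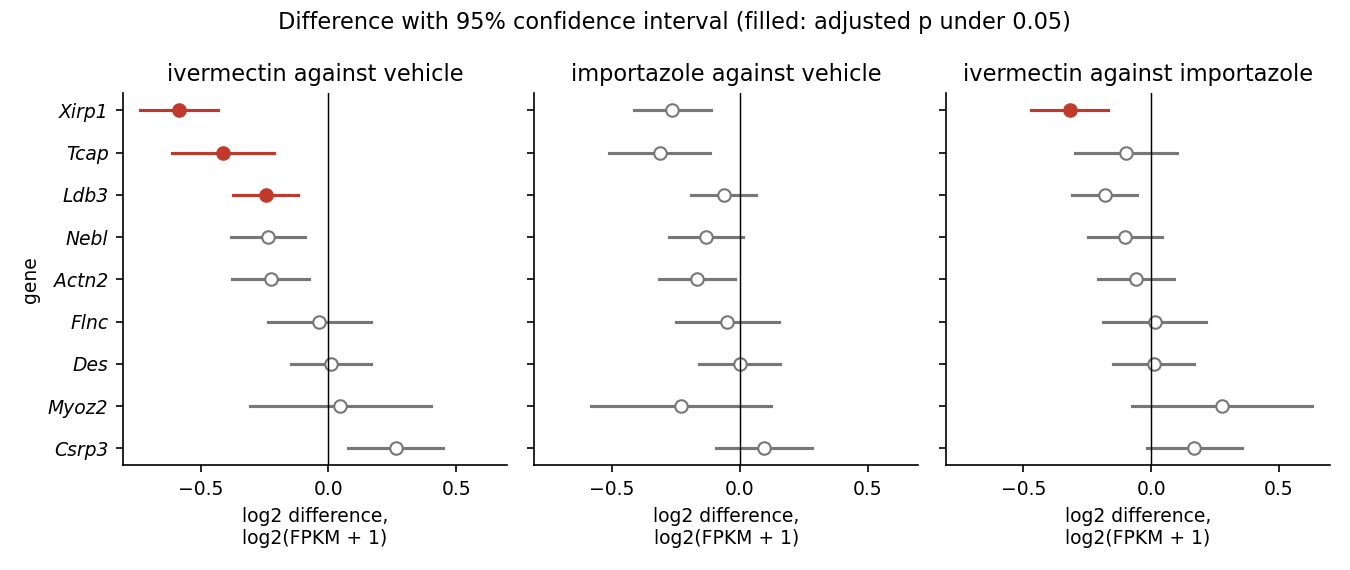
Difference in log2(FPKM + 1) with its 95% confidence interval for the 9 tested genes in the 3 comparisons, filled where the limma adjusted p was under 0.05. With ivermectin Xirp1, Tcap and Ldb3 are filled at -0.58, -0.41 and -0.24, with importazole none is, and Xirp1 is filled at -0.32 between the compounds.

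The promoters of 4 members with different values under ivermectin are shown side by side: Ldb3, which fell, Actn2 and Csrp3, whose ivermectin libraries lay below and above vehicle without passing the test, and Des, whose libraries overlapped. Each is the stretch of 250 bases before the first start listed by RefSeq (GRCm38.p6), 5′ to 3′ on the strand of the gene. Capitals mark matches to the CArG box bound by SRF, the MEF2 site, MCAT (CATTCC), the E-box (CANNTG), all on both strands, and TATAAA on the gene's strand; the marked motifs do not overlap each other in these 4 promoters. MCAT and TATAAA occur in 12.6% and 7.59% of promoters. GATA was also searched and is not marked, since 53.6% of promoters hold it. RefSeq promoter entries were available for 8 of the 10 genes. Xirp1 and Tcap, which also fell with ivermectin, had none, so their promoters could not be shown.
Ldb3 (chr14:34588682-34588931, minus strand): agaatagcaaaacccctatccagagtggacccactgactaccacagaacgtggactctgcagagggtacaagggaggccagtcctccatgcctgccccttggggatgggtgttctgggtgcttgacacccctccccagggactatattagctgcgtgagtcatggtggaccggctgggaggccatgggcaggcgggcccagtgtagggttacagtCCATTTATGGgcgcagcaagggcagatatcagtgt
Actn2 (chr13:12340733-12340982, minus strand): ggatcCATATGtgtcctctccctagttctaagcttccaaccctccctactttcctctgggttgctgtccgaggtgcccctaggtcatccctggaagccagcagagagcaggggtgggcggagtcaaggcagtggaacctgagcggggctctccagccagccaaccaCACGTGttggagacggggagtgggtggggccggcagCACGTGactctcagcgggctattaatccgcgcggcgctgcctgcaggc
Csrp3 (chr7:48848052-48848301, minus strand): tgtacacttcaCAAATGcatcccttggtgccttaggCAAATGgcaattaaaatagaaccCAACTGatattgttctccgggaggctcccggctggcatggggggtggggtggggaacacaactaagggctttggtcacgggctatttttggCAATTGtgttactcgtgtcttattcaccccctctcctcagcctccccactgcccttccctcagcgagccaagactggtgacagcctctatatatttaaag
Des (chr1:75360042-75360291, plus strand): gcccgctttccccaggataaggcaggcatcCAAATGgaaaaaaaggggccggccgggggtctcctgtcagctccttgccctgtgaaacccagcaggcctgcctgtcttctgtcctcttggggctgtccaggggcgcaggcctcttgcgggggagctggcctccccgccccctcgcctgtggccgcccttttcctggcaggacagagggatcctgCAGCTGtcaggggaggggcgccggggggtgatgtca
Ldb3 held a CArG box, CCATTTATGG, 35 to 26 bases before its first start, a motif present in 1.47% of all 32851 promoter stretches of this length. Actn2, Csrp3 and Des held 3, 4 and 2 E-boxes, a motif found in 66.2% of promoters, and had no match to the other motifs marked. Myoz2 and Xirp2 held a MEF2 site, 33 to 24 and 74 to 65 bases before the start, which 2.92% of promoters do. Of 4 starts listed for Nebl, the fourth held a CArG box 162 to 153 bases upstream and the first an MCAT match at 230 to 225. The second start listed for Flnc held an MCAT match 104 to 99 bases upstream. The shares given are per single stretch, and a gene with several starts has more stretches in which to match. These matches describe the letters in these windows and are not evidence of binding.

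Xirp1 encodes Xin, a protein whose repeats bind and stabilise actin filaments, found in heart muscle at the intercalated discs (GRCm38 chromosome 9, 120013755 to 120023598, minus strand). Its level was 39.7, 37.2 and 36.9 FPKM in vehicle 1, 2 and 3, then 25.4, 25.9 and 23.7 with ivermectin and 30.2, 33.7 and 30.4 with importazole. The 3 groups did not overlap, with importazole between the other two. Xirp1 fell by 34.1% in mean FPKM with ivermectin (log2 change -0.58, SE 0.07, limma adjusted p = 6.94e-04). The call held in all 19 alternative analyses, with adjusted p from 4.10e-04 to 0.0126. With importazole the mean was 17.1% lower, which did not pass (log2 change -0.26, 95% interval -0.42 to -0.11, limma adjusted p = 0.0847). It passed with quantile normalization (log2 change -0.31, limma adjusted p = 0.0307) and median-of-ratios scaling (-0.31, limma adjusted p = 0.034).

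Xirp1 was also the single member that differed between the compounds at these doses, where 2.71% of all genes were called lower with ivermectin and 0.714% higher (3.42% in either direction). The difference was -0.32 (SE 0.07, limma adjusted p = 0.0306). The 3 ivermectin libraries lay below the 3 importazole libraries for 2 members, Xirp1 and Ldb3, and above them for 0, against 16.1% and 8.04% of all genes (24.2% in either direction). The Xirp1 call ended without ivermectin 1, 2 or 3 (limma adjusted p = 0.0738, 0.0599 and 0.079), without importazole 1, 2 or 3 (0.0673, 0.128 and 0.0699), and without vehicle 2 (0.0524). It also ended without the pair lacking Yam1 (0.111). Over all genes the split of genes called higher and lower with ivermectin, 81 and 307, was 191 and 274 after quantile normalization and 161 and 280 after median-of-ratios scaling.

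The second Xin repeat gene, Xirp2 (chromosome 2, 67446002 to 67526614, plus strand), was close to 0 throughout. Its values were 0.00371, 0.0107 and 0.0035 FPKM in vehicle, 0.00267, 0.00745 and 0.00597 with ivermectin and 0.00723, 0.0114 and 0.00857 with importazole. Xirp1 made up 99.97% or more of the Xin repeat FPKM in each library. Values this far under 1 FPKM could not be compared between groups.

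Tcap encodes telethonin, which caps the ends of titin at the Z-disc (chromosome 11, 98383811 to 98384953, plus strand). It was at 40.7, 32.7 and 33.3 FPKM in vehicle, 24.7, 28.9 and 25.8 with ivermectin and 27.9, 28.5 and 28.4 with importazole. Vehicle 1 stood above the other vehicle libraries, and every compound library lay below every vehicle library. Tcap fell by 25.7% with ivermectin (log2 change -0.41, SE 0.09, limma adjusted p = 0.0289). The call ended without vehicle 1 (log2 change -0.31, limma adjusted p = 0.0735), without ivermectin 1 or 3 (limma adjusted p = 0.0903 and 0.0786) and without importazole 1 (0.0508). Without the pair lacking Yam1 the log2 change was -0.45 (limma adjusted p = 0.102). With importazole Tcap was 20.5% lower and did not pass (log2 change -0.31, 95% interval -0.51 to -0.11, limma adjusted p = 0.113), though it passed after quantile normalization (0.0314) and median-of-ratios scaling (0.0316). Between the compounds the difference was -0.10, with a 95% interval of -0.30 to 0.10.

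Csrp3 encodes muscle LIM protein, a partner of telethonin that is also found in the nucleus (chromosome 7, 48830398 to 48848033, minus strand). Its libraries read 37.7, 40.2 and 39.5 FPKM in vehicle, 45.5, 45.0 and 51.3 with ivermectin and 45.5, 43.4 and 37.1 with importazole. It was the single member whose ivermectin libraries all lay above vehicle, by 20.8% in the mean. This did not pass (log2 change 0.26, 95% interval 0.08 to 0.45, limma adjusted p = 0.111), and it passed in 0 of the 19 alternatives. With importazole the groups overlapped (log2 change 0.09, limma adjusted p = 0.641). Its relatives are Csrp1 and Csrp2. Csrp1, the form of smooth muscle and many other tissues, fell with ivermectin from 122 ± 4.15 to 94.9 ± 3.77 FPKM (log2 change -0.36, limma adjusted p = 0.00726), a call that ended without the pair lacking Yam1 (0.0656). Csrp2 went from 111 ± 6.53 to 94.06 ± 1.87 FPKM and did not pass (limma adjusted p = 0.07). The share of Csrp3 in the summed FPKM of the 3 CSRP genes was 13.6% to 15.1% in vehicle, 18.9% to 21.2% with ivermectin and 16.6% to 18.2% with importazole, with no overlap between vehicle and either compound.

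Of the α-actinin-binding scaffolds, Ldb3 (chromosome 14, 34526603 to 34588682, minus strand) was at 60.7, 64.3 and 61.5 FPKM in vehicle, 53.9, 52.0 and 51.0 with ivermectin and 60.3, 57.1 and 61.1 with importazole. The ivermectin libraries lay below all others, and importazole overlapped vehicle. Ldb3 fell by 15.9% with ivermectin (log2 change -0.24, SE 0.06, limma adjusted p = 0.0386). The call ended whichever of the 9 libraries was left out, with adjusted p of 0.0529 to 0.14, and it held in 4 of the 19 alternatives. Without the pair lacking Yam1 the log2 change was -0.20 (limma adjusted p = 0.22). With importazole the log2 change was -0.06 (95% interval -0.19 to 0.06). Between the compounds the difference was -0.18 (95% interval -0.31 to -0.06) and did not pass (limma adjusted p = 0.118). The gene yields several splice forms in muscle, which the gene-level values merge.

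Nebl (chromosome 2, 17343909 to 17731464, minus strand) also has several transcripts, from distant starts, that the values merge. It was at 97.6, 98.7 and 103 FPKM in vehicle, 81.3, 90.6 and 81.3 with ivermectin and 85.2, 92.4 and 94.8 with importazole. Both compound groups lay below vehicle, without passing the test. The log2 change was -0.24 with ivermectin (95% interval -0.38 to -0.09, limma adjusted p = 0.072) and -0.13 with importazole (95% interval -0.28 to 0.01, limma adjusted p = 0.355). Its relative Nrap, a scaffold of young myofibrils, was at 20.7 ± 0.974 FPKM in vehicle and 17.6 ± 1.43 with ivermectin, and nebulin itself (Neb) was at 0.452 ± 0.0767 FPKM in vehicle. Nebl held 81.2% to 83.1% of the FPKM of the 3 genes in every library.

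Myoz2 encodes calsarcin-1, which binds α-actinin and the phosphatase calcineurin (chromosome 3, 123006206 to 123035015, minus strand). Its values scattered most among the tested genes, at 6.93, 5.85 and 8.05 FPKM in vehicle, 6.92, 6.12 and 8.61 with ivermectin and 7.02, 5.99 and 4.43 with importazole. The groups overlapped, and the 95% interval of the log2 change ran from -0.31 to 0.40 for ivermectin and from -0.58 to 0.12 for importazole.

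Actn2 (chromosome 13, 12269426 to 12340760, minus strand) was at 51.5, 50.3 and 50.3 FPKM in vehicle, 42.9, 46.8 and 40.1 with ivermectin and 44.4, 47.2 and 43.6 with importazole. All compound libraries lay below vehicle, and both compound groups overlapped each other. The log2 change was -0.23 with ivermectin (95% interval -0.38 to -0.08, limma adjusted p = 0.0947) and -0.17 with importazole (95% interval -0.32 to -0.02, limma adjusted p = 0.262), and neither passed in any of the 19 alternatives. Actn2 made up 16.4% to 19.0% of the summed FPKM of the 4 α-actinin genes across the libraries, and its share overlapped between vehicle and both compounds. The main α-actinin transcript was the non-muscle form Actn4, at 62.6% ± 0.266 of the family in vehicle, and Actn1, another non-muscle form, held 19.0% ± 0.168.

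Flnc encodes filamin C, the muscle filamin that cross-links actin at the Z-disc and membrane (chromosome 6, 29433256 to 29461883, plus strand). Its level was 35.1, 38.6 and 34.0 FPKM in vehicle, 33.7, 40.4 and 31.3 with ivermectin and 34.5, 35.9 and 33.5 with importazole. Ivermectin 2 was the highest and ivermectin 3 the lowest of the 9 libraries. The 95% interval of the log2 change was -0.24 to 0.17 for ivermectin and -0.25 to 0.15 for importazole. Flnc gave 28.3% ± 1.33 of the FPKM of the 3 filamin genes in vehicle and 30.4% ± 2.42 with ivermectin. The widely expressed Flna remained the main filamin, at 60.0% ± 1.66 and 57.02% ± 2.04.

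Des (chromosome 1, 75360329 to 75368579, plus strand) was at 92.9, 88.1 and 86.7 FPKM in vehicle, 84.8, 88.9 and 96.0 with ivermectin and 84.1, 97.0 and 86.9 with importazole. The 3 groups overlapped and their means lay within 1 FPKM of each other. The log2 change was 0.01 with ivermectin (95% interval -0.15 to 0.17) and 0.00 with importazole (95% interval -0.16 to 0.16), so changes of the size seen for Xirp1 or Tcap with ivermectin lay outside the interval. The more abundant intermediate filament transcript in these cells was vimentin (Vim), typical of mesenchymal and immature cells. Vim fell with ivermectin from 443 ± 34.9 to 300 ± 7.52 FPKM (log2 change -0.56, limma adjusted p = 0.00115) and was at 395 ± 24.5 with importazole. Its difference between the compounds passed (-0.40, limma adjusted p = 0.0127) but ended without importazole 1 or 2 (limma adjusted p = 0.0611 in both cases) and without the pair lacking Yam1 (0.059). The share of Des in the summed FPKM of 7 cytoplasmic intermediate filament genes was 16.0% to 17.25% in vehicle, 21.35% to 23.98% with ivermectin and 16.39% to 19.05% with importazole. The ivermectin libraries lay above all others in this share.

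**Figure D3:**
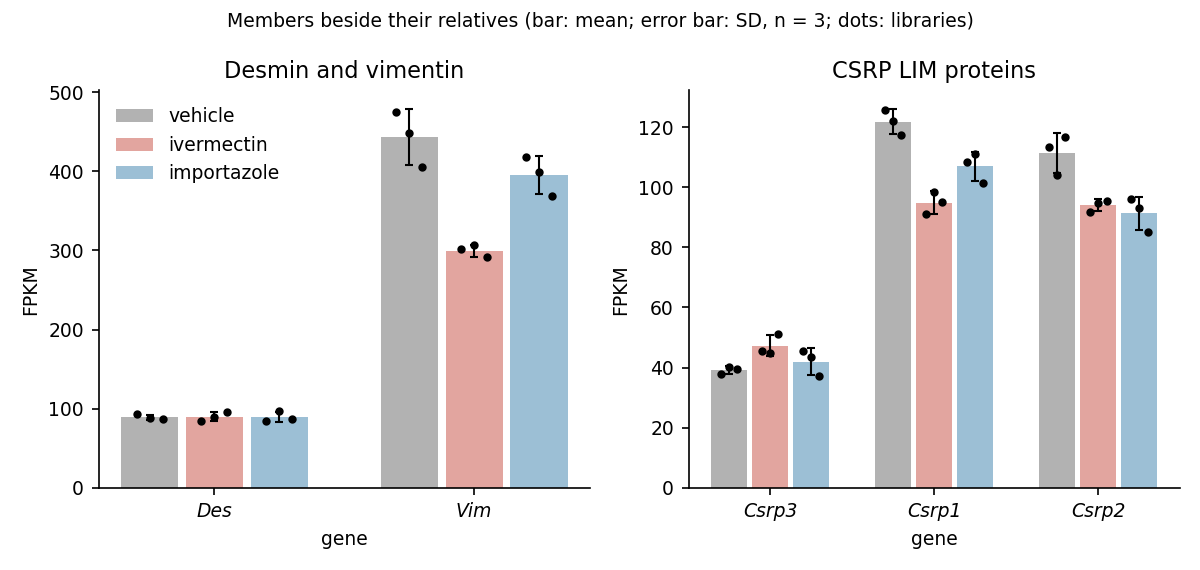
FPKM of Des beside Vim (left) and of Csrp3 beside Csrp1 and Csrp2 (right); bars are means, error bars SD over 3 libraries, and dots the libraries. Des stays near 89 FPKM in each group while Vim is at 443, 300 and 395 FPKM in vehicle, ivermectin and importazole; Csrp3 is at 39.1, 47.3 and 42.0 FPKM.

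With ivermectin the order of the levels shifted. Des (89.9 ± 5.65 FPKM) and Nebl (84.4 ± 5.37) overlapped at the top. Csrp3 at 47.3 ± 3.54 FPKM came between Ldb3 (52.3 ± 1.5) and Actn2 (43.3 ± 3.34) and overlapped both. Tcap (26.4 ± 2.16) and Xirp1 (25.0 ± 1.16) overlapped each other and lay below Flnc (35.2 ± 4.69), from which they had not been separable in vehicle. With importazole Nebl (90.8 ± 4.99) and Des (89.3 ± 6.77) also overlapped, Actn2 (45.1 ± 1.90) overlapped Csrp3 (42.0 ± 4.39), and Tcap (28.3 ± 0.324) lay below Xirp1 (31.5 ± 1.97) without overlap.

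**Figure D4:**
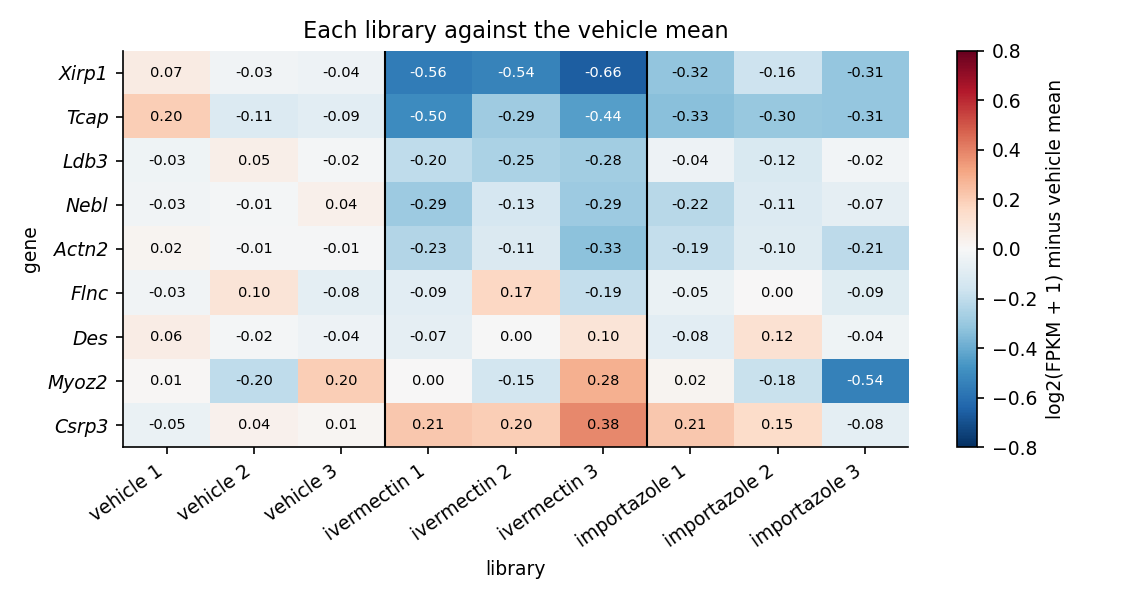
Difference of each library from the vehicle mean of the gene in log2(FPKM + 1), for 9 genes (rows) and 9 libraries (columns, grouped as vehicle, ivermectin and importazole), blue below and red above. The rows of Xirp1, Tcap, Ldb3, Nebl and Actn2 are below the vehicle mean in all 6 compound libraries, Csrp3 is above it in 5 of them, and Des and Flnc change sign between libraries.

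The genes most like Xirp1 across the 9 libraries were sought by the root mean square distance between deviations of log2(FPKM + 1) from each gene's own mean, among 7986 other genes with a mean of at least 5 FPKM. They were Rassf1 (distance 0.062), Adamts8 (0.0659), Hunk (0.0723), Vim (0.0794) and Ntn1 (0.0799), beside a root mean square deviation of 0.245 for Xirp1 itself. Rassf1, encoding a scaffold of Hippo signalling, had means of 16.9, 11.6 and 14.5 FPKM in vehicle, ivermectin and importazole. Hunk, encoding a protein kinase, had 17.9, 12.6 and 16.0. The extracellular protease gene Adamts8 had means of 10.4, 6.545 and 7.80 FPKM, and Ntn1, encoding the guidance cue netrin-1, had 91.8, 67.2 and 74.9.

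In 5 wider lists around the Z-disc, each gene that passed the test with ivermectin was lower. As background for all 5 lists, 2.52% of all genes were called lower and 1.79% higher with ivermectin, with a median log2 change of 0.01. With importazole these values were 0.565%, 1.69% and 0.04. Between the compounds 2.71% of all genes were called lower with ivermectin and 0.714% higher, with a median of -0.03. Among 24 tested partners of the Z-disc 5 fell, 0 rose and 19 did not pass, with a median log2 change of -0.20. Synpo2l, encoding a heart-enriched actin-associated protein, fell from 21.1 to 10.99 mean FPKM (log2 change -0.88, limma adjusted p = 2.82e-04) and Pdlim7, a PDZ and LIM scaffold, from 18.4 to 13.3 (-0.44, limma adjusted p = 0.00649). Both calls held whichever library was left out, and that of Pdlim7 ended without the pair lacking Yam1 (0.0706). Those of Pdlim3, another such scaffold (-0.54), and of Lmod3, which helps build thin filaments (-0.34), did not, with adjusted p up to 0.0837 and 0.102. The fifth was Actn1 (-0.29, adjusted p up to 0.1), named here after its value was seen. Without the pair lacking Yam1 the adjusted p of Pdlim3, Lmod3 and Actn1 was 0.171, 0.0681 and 0.18. The count of 5 became 3 without vehicle 1, 2 or 3, ivermectin 1 or 3 or importazole 1, and 2 without the pair lacking Yam1. With importazole 0 of the 24 passed limma's test, 6 being lower and 0 higher at an unadjusted p under 0.05, and the median was -0.06. Without ivermectin 3, and without the pair lacking Yam1, 1 of them passed. Synpo2l was at 23.4 mean FPKM there, and its difference between the compounds was -1.03 (limma adjusted p = 9.0e-05).

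In the list of LIM and stretch-signalling proteins, 3 of 14 fell with ivermectin (median -0.13), beside 2.52% of all genes. They were Csrp1, Fhl1 and Itgb1bp2, the last from 1.44 to 0.767 FPKM. With importazole 2 fell (median -0.05), both LIM-only genes, beside 0.565% of all genes. Fhl1, which binds titin, went from 72.6 to 49.4 mean FPKM (log2 change -0.55, limma adjusted p = 3.79e-04), a call that held without any one library. Fhl2, a titin partner and transcriptional cofactor, went from 119 to 95.7 (-0.31, limma adjusted p = 0.0211), and its call ended in 6 of the 9 analyses that leave out a library, those without any vehicle or importazole library, with adjusted p up to 0.102. With ivermectin Fhl1 was at 58.2 (-0.31, limma adjusted p = 0.012), which ended without vehicle 2 (0.0578) and without the pair lacking Yam1 (0.0681). The ivermectin call of Itgb1bp2 did not survive the omission of any library (highest adjusted p 0.163) or of the pair lacking Yam1 (0.281). The ivermectin count of 3 was 1 without vehicle 2 and 0 without the pair lacking Yam1. Between the compounds 1 gene of this list passed, the stretch-responsive Ankrd1 (-0.34, limma adjusted p = 0.0493), whose call ended on leaving out any library but ivermectin 3.

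Among 14 intermediate filament genes and linkers, 3 fell with ivermectin (median -0.11), beside 2.52% of all genes. They were Vim and the desmosomal desmin anchors Jup (plakoglobin, log2 change -0.42) and Dsp (desmoplakin, -0.32). The calls of Jup and Dsp ended without vehicle 1 or 2, with adjusted p up to 0.0683 and 0.1, and that of Dsp also without vehicle 3, ivermectin 1 or ivermectin 3. Leaving out vehicle 1, vehicle 2 or the pair lacking Yam1 reduced the count to 1. Without that pair the adjusted p of Jup and Dsp was 0.119 and 0.16. With importazole 0 of the 14 passed limma's test, 1 being lower and 2 higher at an unadjusted p under 0.05. Between the compounds 2 differed, Vim and Dsp, and Dsp was lower with ivermectin (-0.41, limma adjusted p = 0.0089).

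Of 13 chaperones and ubiquitin ligases of the Z-disc, 2 fell with ivermectin (median -0.07), 1 with importazole (median -0.14) and 0 rose. Among all genes 2.52% were called lower with ivermectin and 0.565% with importazole. Between the compounds 0 chaperones and ligases passed limma's test (1 at an unadjusted p under 0.05). Hspb7, a small heat shock protein of heart and muscle, fell with both compounds, from 174 to 123 mean FPKM with ivermectin (log2 change -0.49, limma adjusted p = 0.00163) and to 129 with importazole (-0.43, limma adjusted p = 0.00545). Both calls held without any one library. The desmin chaperone Cryab fell with ivermectin from 253 to 204 (-0.31, limma adjusted p = 0.0347). Its exons overlap those of Hspb2 on the opposite strand, so with the use of strand unknown its value is uncertain. The call ended without vehicle 1 or 2, ivermectin 1, 2 or 3 or importazole 1 (highest adjusted p 0.108), and without the pair lacking Yam1 (0.184). Of 13 tested transcriptional regulators of sarcomere genes, 2 fell with ivermectin (median -0.17) and 1 with importazole (median -0.09), beside the same shares. Srf, the factor that binds the CArG box, fell with ivermectin from 29.4 to 21.5 mean FPKM (-0.44, limma adjusted p = 0.00603; 0.0609 without the pair lacking Yam1) and was at 29.7 with importazole, and its difference between the compounds passed (-0.45, limma adjusted p = 0.00535). The muscle methyltransferase gene Smyd1 fell with importazole (-0.34, limma adjusted p = 0.0129), a call that ended without vehicle 2 or any importazole library, with adjusted p up to 0.0693. Nkx2-5, a cardiac homeobox factor, fell with ivermectin (-0.46, limma adjusted p = 0.0345), which ended without vehicle 1 or 2, ivermectin 1 or 2 or any importazole library, with adjusted p up to 0.1. Without the pair lacking Yam1, 0 genes of this list passed in either comparison with vehicle, with an adjusted p of 0.0946 for Nkx2-5 with ivermectin and 0.0514 for Smyd1 with importazole.

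**Figure D5:**
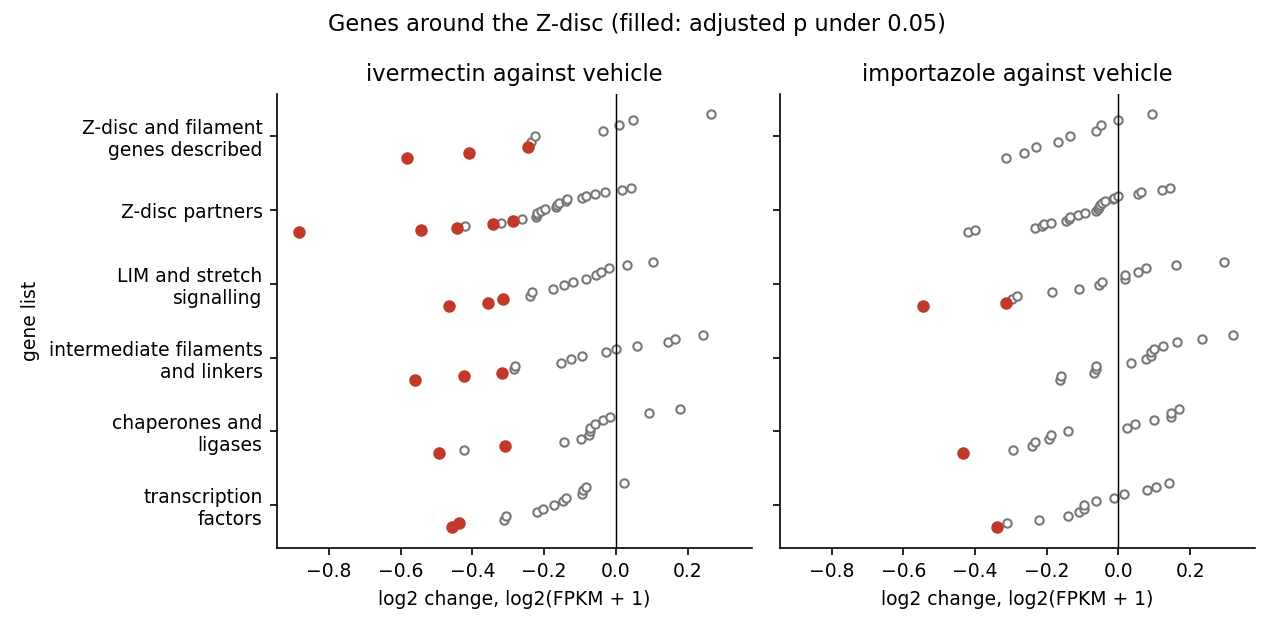
Log2 change of each tested gene against vehicle for ivermectin (left) and importazole (right), in the Z-disc and filament genes described above and in 5 wider lists; filled dots passed the limma test. All filled dots lie below 0, with 3, 5, 3, 3, 2 and 2 from top to bottom for ivermectin and 0, 0, 2, 0, 1 and 1 for importazole.

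Markers of other cells moved with some of these results, and their part in them was not tested. The fibroblast list summed to 23.8 to 27.0 FPKM in vehicle, 37.1 to 39.1 with ivermectin and 34.8 to 37.2 with importazole. Of its 8 genes 2 were tested and nearly all of the sum was Ddr2. This gene was called higher with ivermectin (log2 change 0.59, limma adjusted p = 7.02e-04) and importazole (0.49, limma adjusted p = 0.00379). Among all genes 1.79% and 1.69% were called higher. The exons of Ddr2 overlap another tested gene on the opposite strand. The defining genes Col1a1, Col1a2, Col3a1, Dcn and Pdgfra had means under 1 FPKM. Smooth muscle markers, 3 of 4 tested, summed to 1347 to 1404 FPKM in vehicle, 1158 to 1279 with ivermectin and 1173 to 1285 with importazole. Most of that was Acta2, an actin that immature cardiomyocytes also express. Tagln was also clearly expressed, at 153 FPKM on average. Cnn1 was at 0.971 and the defining Myh11 at 0.0825 FPKM on average. Endothelial markers, 2 of 5 tested, summed to 10.3 to 11.2, 8.97 to 9.93 and 9.79 to 11.5 FPKM in the same order, and macrophage markers, 1 of 4 tested, to 0.796 to 1.63, 0.885 to 2.295 and 1.09 to 1.78. Skeletal muscle markers, 1 of 6 tested, summed to 13.7 to 14.7, 12.03 to 15.7 and 10.7 to 10.9, nearly all of it Ckm, with the skeletal factors Myod1 and Myog under 0.1 FPKM on average. No marker found in the files was at 0 in all 9 libraries.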

How the data were processed

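Poly(A) RNA from 9 HL-1 libraries, 3 per group, was sequenced on the Ion Proton system, per the labels' protocols. The deposited files hold 1 gene symbol and 1 FPKM value per line, per the file headers. Builds mm10 and GRCm38 and the tools Cufflinks, STAR, Bowtie and Bowtie2 appear in the submitters' processing notes. Versions, annotation, strand use and filters were not given in the sources used here. Because each deposited FPKM is a share of the mapped fragments, depth cannot be read from it. An abundant transcript missing from a library can raise the others. Vehicle 2 and ivermectin 3, which list Yam1 at 0, had a median log2(FPKM + 1) of 3.42 and 3.50 over the tested genes. The remaining libraries had 3.44 to 3.53. Whether the missing Yam1 shifted other genes was not tested.

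Each file has 25230 lines, and values of the 48 symbols found on several lines were added up. The test took the 11337 genes that reached 1 FPKM in 3 or more libraries, and log2(FPKM + 1) was fitted with limma 3.58.1 (R 4.3.3), group as the only term, trend and robust moderation, all 9 libraries, two-sided, Benjamini-Hochberg over all genes tested. The fit was tested on simulated data. All 10 members are named whatever their result. In each wider list up to 4 genes with the smallest p per comparison were eligible to be named. Paralogues of the members are given whatever their values, and marker genes named singly were chosen after their values were seen. Members and lists were chosen with earlier results of these data known, so their direction is not independent evidence. Locations come from GENCODE M21 (GRCm38) and promoters from RefSeq. Of the members, Des and Xirp2 have exons that overlap an annotated gene on the opposite strand, neither of which is listed in the files. The replicate numbers were checked for pairing: 1 of 9 same-numbered pairs had correlated deviations over 0.1, so they were not used as a block. Some pairs with different numbers were also over 0.1. The highest, 0.31, was between vehicle 2 and ivermectin 3, which both list Yam1 at 0. Figures were drawn with matplotlib 3.10.9 in Python 3.11.15. The 19 alternatives changed the pseudocount (0.1 or 0.5), the filter (none, or 5 FPKM), the scaling (quantile or median of ratios), the libraries fitted (the 6 of the groups compared, or all but 1, or all but vehicle 2 and ivermectin 3, which lack Yam1), the moderation (no trend, not robust) or added a replicate block.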

Additional observations from a re-analysis of the deposited data

How the results depend on the processing

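The ivermectin decrease of Xirp1 kept its direction and its call in all 19 alternatives. Of the 9 tested members with ivermectin, 3 passed; 1 passed with no filter, with the replicate block, without the pair lacking Yam1 and in the fit to 6 libraries, and 1 to 2 when a library was left out. With importazole 0 passed, and 2 after quantile normalization or median-of-ratios scaling; leaving out a library gave 0 throughout. Between the compounds 1 passed, and 0 with no filter, with the replicate block, without trend and robust moderation, without the pair lacking Yam1 and in the fit to 6 libraries, with 0 to 1 when a library was left out. The replicate numbers share no stated batch, and 3 of 9 libraries correlated best with their own number. Over all genes the block gave 354 calls for ivermectin (489 without it), 175 for importazole (256) and 257 between the compounds (388). With no filter, which tests more genes, the counts were 211, 133 and 177, and without the pair lacking Yam1, which leaves fewer samples, they were 195, 161 and 233. The fit to 6 libraries gave 274 for ivermectin, 278 for importazole and 289 between the compounds. Leaving out a library gave 243 to 399 for ivermectin, lowest without vehicle 2 and also under the main count by over 1.5 times without vehicle 1 and ivermectin 1 and 3. It gave 128 to 320 for importazole, lowest without importazole 1 and as low as 154 or less without vehicle 2 or 3 and importazole 2 or 3. It gave 177 to 396 between the compounds, lowest without importazole 2 and low without ivermectin 1 or 2 and importazole 1 or 3. The cause of these shifts in the counts was not tested. Depth is unknown, so no limit from counting can be set, and with 3 libraries a group the widest 95% interval among the members, that of Myoz2, spanned from -0.31 to 0.40 in log2 units with ivermectin.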
